A study of Mus musculus with 48 samples.

Results

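The members of the Neurod family that mark glutamatergic neurons, and the lincRNA gene that stands next to *Neurod6*, were followed through RNA-sequencing of hippocampal Cornu Ammonis (CA) tissue of male mice. 5 genes were chosen by name, with earlier results of these data known, out of 24421 genes in the count table. They are *Neurod6*, also named *Nex*, its neighbor *Gm3279*, and the related basic helix-loop-helix (bHLH) genes *Neurod1*, *Neurod2* and *Bhlhe22*. Counts of these members called, given below beside the share over all genes, are thus not those of an independently chosen set. Each of the 48 libraries is 1 mouse, 8 weeks old by the labels. The Glu-CB1 line (nex-cre x CB1f/f) carries Cre recombinase under regulatory elements of *Nex*, which deletes the floxed cannabinoid type-1 receptor gene *Cnr1* in glutamatergic neurons of the dorsal telencephalon. It gave 5 Glu-CB1-WT and 7 Glu-CB1-KO libraries in the basal state, that is, in the home cage, and 5 and 7 after 5 min in an open field arena. The GABA-CB1 line (dlx5/6-cre x CB1f/f) carries Cre under *Dlx5/6* elements, which deletes the receptor gene in forebrain GABAergic neurons. It gave 6 GABA-CB1-WT and 6 GABA-CB1-KO basal libraries, and 7 and 5 after the open field, as labelled. By the study's text, the tissue of open field mice of both lines was isolated an hour after the exposure. The labels do not say which Cre or floxed alleles the CB1-WT littermates carried. All Glu-CB1-KO mice combine the *Nex*-driven Cre with the loss of the receptor in glutamatergic neurons, so the effects of these factors on a gene cannot be told apart here.

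NeuroD proteins are transcription factors that bind E-boxes (CANNTG) as dimers with the widely expressed E-proteins, and they act downstream of the neurogenins to drive and maintain the differentiation of excitatory neurons. *Neurod6* is switched on in postmitotic pyramidal neurons of cortex and hippocampus, and its restriction to them is why its regulatory elements are used to direct Cre. In the *Nex*-Cre strain in general use, Cre was knocked into the *Neurod6* gene itself, while the labels of these samples name the regulatory elements only. *Neurod2* is broadly expressed in excitatory neurons of the forebrain, *Neurod1* is needed for the formation of dentate granule cells, and *Bhlhe22* (Bhlhb5) is a transcriptional repressor of the neighboring bHLH subfamily that takes part in the identity of cortical projection neurons. *Gm3279* is an RNA gene without a known function.

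*Neurod6* and *Gm3279* lie side by side on chromosome 6 (mm10) and are read in opposite directions. *Neurod6* occupies positions 55677819 to 55681263 on the minus strand, with 2 exons of 2153 bases in all, and is protein coding. *Gm3279* occupies positions 55684571 to 55694574 on the plus strand, with 3 exons of 1092 bases, and is annotated as a lincRNA in GENCODE M21. Their start sites are 3308 bp apart, with 3307 bases between the genes and 0 other GENCODE genes in that interval. The other members lie elsewhere, *Neurod1* on chromosome 2 (79452641 to 79456636, minus strand), *Neurod2* on chromosome 11 (98325417 to 98329645, minus strand) and *Bhlhe22* on chromosome 3 (18054325 to 18057514, plus strand, 1 exon). No exon of a member overlapped an exon of another gene in the table, although GENCODE places *Cerkl* and *Gm26755* over *Neurod1*. The stretch of 250 bases before each of the divergent starts is shown because the results turn on this pair. The sequences are from RefSeq (GRCm38.p6), 5′ to 3′ on the strand of the gene, with every CANNTG in capitals. That of *Neurod6* is chr6:55681264-55681513 (minus strand), and that of *Gm3279* is chr6:55684321-55684570 (plus strand).
Neurod6: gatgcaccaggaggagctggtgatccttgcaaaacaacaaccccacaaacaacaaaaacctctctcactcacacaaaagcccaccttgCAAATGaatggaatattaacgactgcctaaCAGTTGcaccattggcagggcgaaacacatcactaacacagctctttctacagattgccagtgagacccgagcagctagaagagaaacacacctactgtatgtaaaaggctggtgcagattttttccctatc
Gm3279: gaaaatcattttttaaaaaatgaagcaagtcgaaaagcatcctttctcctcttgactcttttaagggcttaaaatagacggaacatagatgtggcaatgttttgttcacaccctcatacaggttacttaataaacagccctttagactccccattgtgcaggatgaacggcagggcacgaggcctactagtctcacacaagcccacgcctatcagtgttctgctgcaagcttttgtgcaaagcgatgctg

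The *Neurod6* stretch holds 2 matches, of which CAAATG starts 162 bases before the gene. The other, CAGTTG, starts at 132 bases. The *Gm3279* stretch holds 0. CANNTG is its own reverse complement in form, so both strands were covered, and 66.2% of 32851 RefSeq mouse promoters hold at least 1 match within the same 250 bases. The *Neurod2* stretch holds 3 matches and that of *Neurod1* 1, and 12.2% of all promoters hold at least 3. A match is a description of the letters only. *Bhlhe22* had no entry among these promoters, so 4 of the 5 genes could be examined.

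Between 25892654 and 34091080 reads were counted on genes per library (median 30975561). Levels are given on the CPM scale, on which the reads of a gene are set against the size of its library (TMM normalization over the 48 libraries), as mean ± SD. The deleted gene *Cnr1* followed the labels in every comparison. It had 379 ± 27.4 CPM in Glu-CB1-WT and 228 ± 15.9 in Glu-CB1-KO mice in the home cage, and 369.5 ± 19.5 CPM in GABA-CB1-WT against 135 ± 21.6 in GABA-CB1-KO mice after the open field. For this last pair the study's text gives the group sizes the other way around, and the labels were used. The libraries split along their first principal component (17.5% of the variance of the 500 most variable genes), with 18 libraries below 0 and 30 above. Groups do not explain this split. The animal numbers in the labels fall into a lower and an upper run in each line, divided at the widest gap. Most libraries below 0 were in the lower run, which also held libraries above 0. Values within each side are given for the differences of the locus and for the correlations that passed by Pearson r. Genotype differences of other genes are not given by side. Markers of the dentate gyrus, which was removed at dissection, were still present, with a sum over 8 markers of 115 to 329 CPM. Choroid plexus markers summed to 39.7 to 4034 CPM, with the highest libraries in GABA-CB1-KO mice after the open field (4034) and in basal GABA-CB1-WT mice (1500), and none of the marker lists had a gene at 0. In bulk tissue, fewer cells of a type and less RNA per cell cannot be told apart.

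Set per kilobase of exon (RPKM), which allows a comparison between genes, *Neurod6* was the most abundant member in every group. Its mean was 158 RPKM over the 34 libraries outside the Glu-CB1-KO groups and 99.5 RPKM over the 14 libraries of Glu-CB1-KO mice. *Neurod2* followed with 38.8 RPKM over all 48 libraries, *Bhlhe22* with 29.5 and *Neurod1* with 9.08. *Gm3279* was the lowest, with 0.319 RPKM outside the Glu-CB1-KO groups and 2.58 RPKM within them. Thus even in Glu-CB1-KO mice the lincRNA stayed below the level of *Neurod1*.

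Both genes of the *Nex* locus differed between Glu-CB1-KO and Glu-CB1-WT mice, in opposite directions and in both states. In the basal state *Neurod6* was measured at 379.8, 387.3, 306.3, 341.4 and 325.2 CPM in the 5 Glu-CB1-WT libraries. The 7 Glu-CB1-KO libraries ran from 198.3 to 258.6 CPM with a median of 219.8. The highest KO library thus lay under the lowest CB1-WT library. The means were 348 ± 34.9 CPM (SD, n = 5) and 220.3 ± 20.2 CPM (n = 7), so that KO mice kept 63.3% of the CB1-WT level (95% confidence interval 57.2 to 70.1%). The log2 difference was −0.66 (SE 0.07, adjusted p = 5.1e-04; p-values of genes come throughout from the quasi-likelihood test of edgeR and are adjusted over all genes tested after Benjamini-Hochberg).

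*Gm3279* went the other way. It had 0.323, 0.3, 0.152, 0.354 and 0.382 CPM in the basal Glu-CB1-WT libraries, and between 2.13 and 4.21 CPM in the 7 Glu-CB1-KO libraries, with a median of 2.89. No KO library overlapped with a CB1-WT library. In reads, these are between 5 and 12 counts in a CB1-WT library and between 63 and 140 in a KO library, so the CB1-WT levels rest on few reads. The means were 0.302 ± 0.0895 CPM and 3.06 ± 0.848 CPM. The KO level was 10.1 times that of CB1-WT (95% confidence interval 6.87 to 14.9; log2 difference 3.34, SE 0.26, adjusted p = 1.7e-05 in the same edgeR test). Of 15138 genes tested in this comparison 0.0198% were called, and 2 of the 5 members were among them. Over all genes, 0.0925% had every KO library below every CB1-WT library, and 0.0991% had them above.

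After the open field, the same 2 genes stood apart. *Neurod6* had 346.4, 349.3, 338.7, 400.0 and 352.2 CPM in the Glu-CB1-WT libraries. In the 7 Glu-CB1-KO libraries it ran from 198.4 to 237.8 CPM with a median of 204.1, again without overlap. The means were 357 ± 24.4 CPM (SD, n = 5) and 208 ± 13.5 CPM (n = 7). The KO level was 58.3% of CB1-WT (log2 difference −0.78, SE 0.05, adjusted p = 1.15e-06 in edgeR's test), and *Neurod6* had the smallest p-value of the 15078 genes tested. *Gm3279* had 0.379, 0.456, 0.327, 0.227 and 0.169 CPM in Glu-CB1-WT libraries and from 1.76 to 3.19 CPM in Glu-CB1-KO libraries, with a median of 2.72, all KO libraries above all CB1-WT libraries. Its level was 8.19 times that of CB1-WT (95% confidence interval 5.76 to 11.6; log2 difference 3.03, SE 0.24, adjusted p = 8.14e-06). Here 0.272% of genes were called, with 2 of the 5 members among them, and 0.285% and 0.458% of genes had KO libraries all below or all above those of CB1-WT.

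On the scale of reads these changes are of very different size. KO minus CB1-WT was −127.7 CPM for *Neurod6* in the home cage and −149.0 CPM after the open field, whereas it was 2.76 and 2.27 CPM for *Gm3279*. The genotype difference did not change detectably between states. The change from basal to open field was −0.12 on the log2 scale for *Neurod6* (95% confidence interval −0.30 to 0.07, adjusted p = 1 in edgeR) and −0.30 for *Gm3279* (−1.17 to 0.56, adjusted p = 1). In that test 0% of 15355 genes were called in the Glu-CB1 line by edgeR or by DESeq2, with 379 genes and 0 of the 5 members at an unadjusted p under 0.05. In the GABA-CB1 line the same test gave 0.08 (adjusted p = 0.612) in *Neurod6* and 0.15 (adjusted p = 0.863) in *Gm3279*, with 0% of genes called by edgeR, 2237 at an unadjusted p under 0.05 and 62 called by DESeq2, none of them a member.

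**Figure D1:**
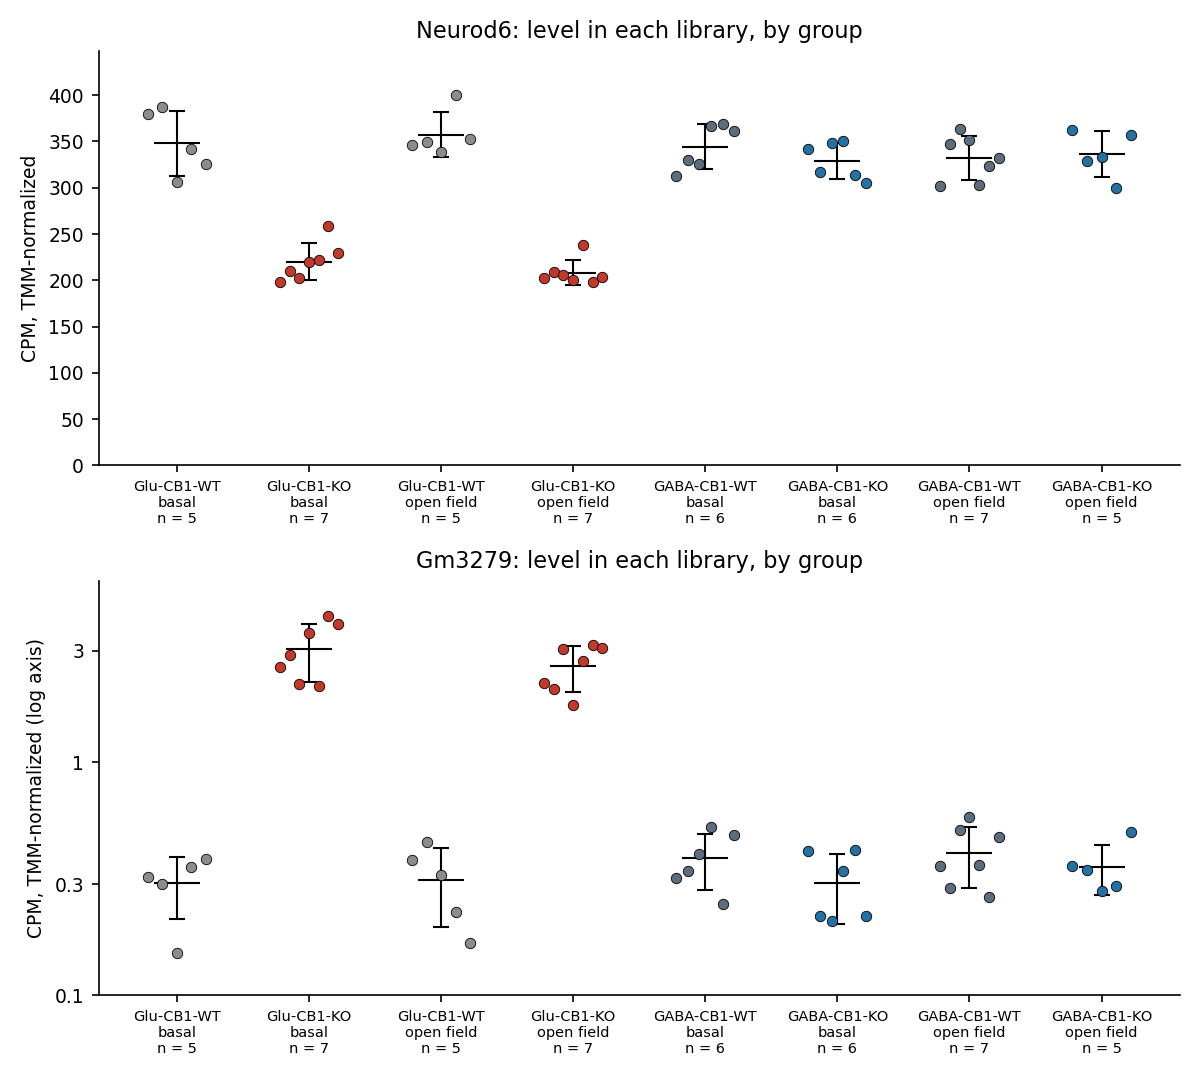
Level of *Neurod6* (top, linear axis from 0) and *Gm3279* (bottom, log axis) in CPM, with 1 point per library in the 8 groups and the mean ± SD in black. The 14 Glu-CB1-KO libraries lie between 198.3 and 258.6 CPM for *Neurod6*, below all 34 others (300.2 to 400.0), and between 1.76 and 4.21 CPM for *Gm3279*, above all others (0.152 to 0.582).

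The GABA-CB1 line, which deletes the same receptor gene with another Cre driver, showed neither difference. *Neurod6* had 344 ± 24.3 CPM (n = 6) in GABA-CB1-WT and 329 ± 19.7 CPM (n = 6) in GABA-CB1-KO mice in the home cage, with ranges of 312.4 to 368.9 and 304.9 to 350.0 CPM that overlapped. The log2 difference was −0.06 (95% confidence interval −0.17 to 0.04, adjusted p = 0.754 in edgeR). After the open field it was 0.02 (−0.10 to 0.14, adjusted p = 0.900), with 332 ± 23.9 CPM (n = 7) in CB1-WT and 336 ± 24.8 CPM (n = 5) in KO mice. *Gm3279* stayed between 5 and 18 counts in all 24 libraries of this line, with log2 differences of −0.34 (−0.88 to 0.20, adjusted p = 0.753) in the home cage and −0.19 (−0.70 to 0.33, adjusted p = 0.753) after the open field. Among all genes 0.245% were called in the basal comparison and 0.0199% after the open field, with 0 of the 5 members in either by edgeR or DESeq2 and none at an unadjusted p under 0.05.

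The difference between the lines was tested directly over the 24 libraries of a state. The genotype effect on *Neurod6* in the Glu-CB1 line minus that in the GABA-CB1 line was −0.59 on the log2 scale in the home cage (SE 0.09, adjusted p = 0.00151 in edgeR) and −0.80 after the open field (SE 0.08, adjusted p = 1.12e-06). For *Gm3279* the differences were 3.68 (SE 0.39, adjusted p = 1.83e-05) and 3.22 (SE 0.35, adjusted p = 9.3e-06). Over all genes 0.279% of 15390 were called in this test in the home cage and 0.568% of 15325 after the open field, with 2 of the 5 members among them in each state. The CB1-WT littermates of the lines did not differ detectably in any member. *Neurod6* of Glu-CB1-WT against GABA-CB1-WT mice was 0.01 higher on the log2 scale in the home cage (95% confidence interval −0.12 to 0.15, adjusted p = 0.994) and 0.10 higher after the open field (−0.01 to 0.22, adjusted p = 0.999). In these comparisons edgeR called 0% of genes, with 702 and 748 at an unadjusted p under 0.05, and DESeq2 called 0 and 1 gene.

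Ordered by level over the 8 groups, *Neurod6* ran from Glu-CB1-WT mice after the open field (357 CPM) through both basal CB1-WT groups (348 and 344 CPM) and the remaining GABA-CB1 groups (336 to 329 CPM) to the Glu-CB1-KO groups (220.3 and 208 CPM). Only the step between GABA-CB1-KO basal and Glu-CB1-KO basal mice, 108.9 CPM, was larger than the SD of the groups on either side of it. For *Gm3279* this was so only for the step of 2.17 CPM between Glu-CB1-KO mice after the open field and GABA-CB1-WT mice after the open field. The other neighbors in either order lay within 1 SD.

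The genotype difference of the locus did not rest on one side of the split between libraries. In the basal state, *Neurod6* in Glu-CB1-KO mice was 59.5% of the CB1-WT level among libraries below 0 on the first principal component (3 KO and 2 CB1-WT) and 66.2% among those above 0 (4 and 3). After the open field it was 58.7% on either side (4 and 2, and 3 and 3). For *Gm3279* the KO level was 10.7 and 10.0 times that of CB1-WT in the home cage, and 9.10 and 8.00 times after the open field. The genotypes stayed apart, without overlap, in each of these subsets.

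After adjustment, none of the nearest genes tested on either side of the locus passed in Glu-CB1-KO mice. Most of those tested in the home cage were under 0.05 before adjustment. Of the 3 nearest on each side, between 142444 and 375230 bases away, *Pde1c* (log2 difference −0.29), *Adcyap1r1* (−0.12) and *6430584L05Rik* (0.40) were under 0.05 before adjustment in the home cage beside 541 of all 15138 genes, and *Pde1c* (−0.22) and *6430584L05Rik* (0.49) after the open field beside 1051 of 15078, with adjusted p-values of edgeR from 0.394 to 0.999, while *Ghrhr* in both states and *Ppp1r17* in the home cage had too few reads to be tested.

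**Figure D2:**
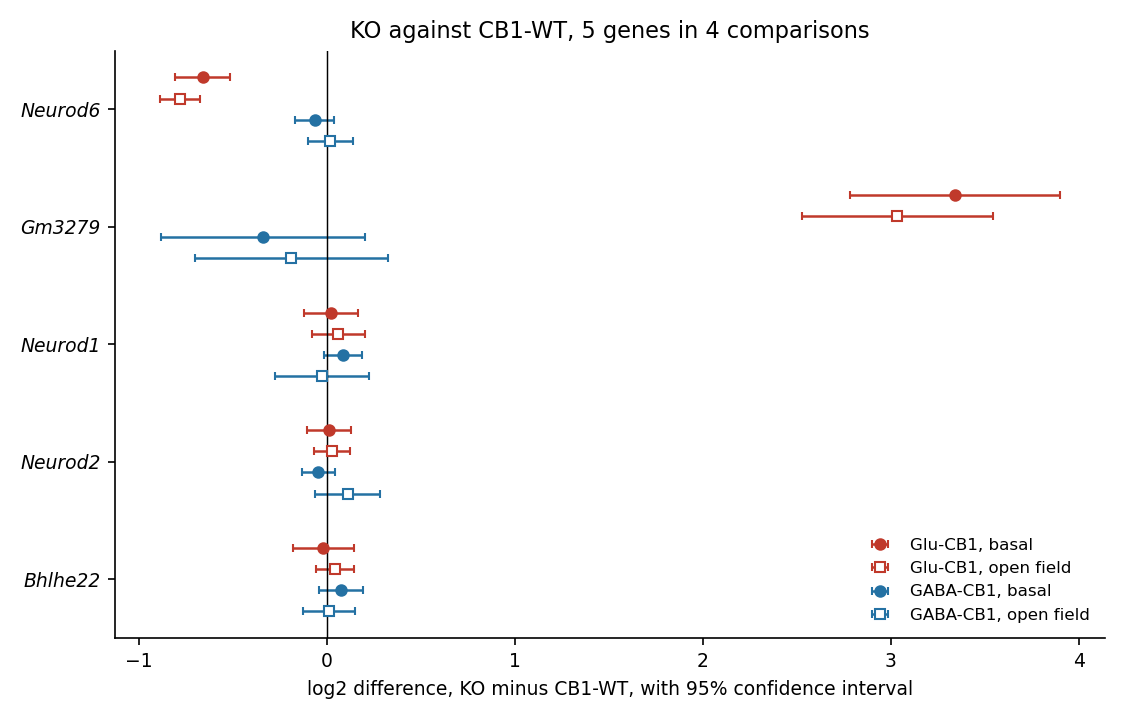
Log2 difference of KO against CB1-WT mice for the 5 genes in the 4 comparisons, with the 95% confidence interval from edgeR (circles basal, squares open field, red Glu-CB1, blue GABA-CB1). The intervals of *Neurod6* and *Gm3279* in the Glu-CB1 line lie away from 0, at −0.66 and −0.78 and at 3.34 and 3.03, and every other interval holds 0.

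The group means of *Neurod1*, *Neurod2* and *Bhlhe22* lay in narrow ranges. *Neurod1* had group means between 20.92 and 24.03 CPM, *Neurod2* between 113.8 and 130.5 CPM and *Bhlhe22* between 90.9 and 99.4 CPM. All steps between neighboring group means were smaller than the SD, but sorting alone brings neighbors close. Groups farther apart in the order can differ by more, such as *Neurod2* in basal GABA-CB1-KO mice (113.8 ± 4.15 CPM) and in Glu-CB1-KO mice after the open field (127.5 ± 7.17 CPM). In the Glu-CB1 line *Neurod2* differed by 0.01 on the log2 scale in the home cage (95% confidence interval −0.10 to 0.13) and by 0.03 after the open field (−0.07 to 0.12). For *Neurod1* the values were 0.02 (−0.12 to 0.17) and 0.06 (−0.08 to 0.20), and for *Bhlhe22* −0.02 (−0.18 to 0.15) and 0.04 (−0.06 to 0.15). The adjusted p was 0.999 in each of these 6 edgeR tests, and each of the intervals lies above the −0.66 measured for *Neurod6* in the home cage. In the GABA-CB1 line the differences of these genes lay between −0.05 and 0.11, with 0.11 for *Neurod2* after the open field (95% confidence interval −0.06 to 0.29, adjusted p = 0.550), which was 0.003 without GABA-CB1-KO replicate 1 (adjusted p = 0.985).

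Exposure to the open field changed none of the 5 genes past the threshold. *Neurod2* came nearest, with a log2 difference of open field against basal of 0.08 in the Glu-CB1 line (SE 0.04, unadjusted p = 0.0441, adjusted p = 0.374 in edgeR) and 0.12 for the GABA-CB1 line (SE 0.05, unadjusted p = 0.0192, adjusted p = 0.263). In basal mice of the GABA-CB1 line it ran from 106.6 to 127.7 CPM, and after the open field from 111.8 to 168.7 CPM, so the states overlapped. The value of 168.7 CPM came from GABA-CB1-KO replicate 1, and without it the log2 difference was 0.07 (adjusted p = 0.386). For *Neurod6* the log2 difference between states was −0.02 in the Glu-CB1 line (95% confidence interval −0.11 to 0.07) and −0.01 for the GABA-CB1 line (−0.09 to 0.07). The share of all genes called was 1.3% for the Glu-CB1 line and 1.03% for the GABA-CB1 line, with 0 of the 5 members by edgeR or DESeq2 and 1 of 5, *Neurod2*, at an unadjusted p under 0.05 in each line.

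**Figure D3:**
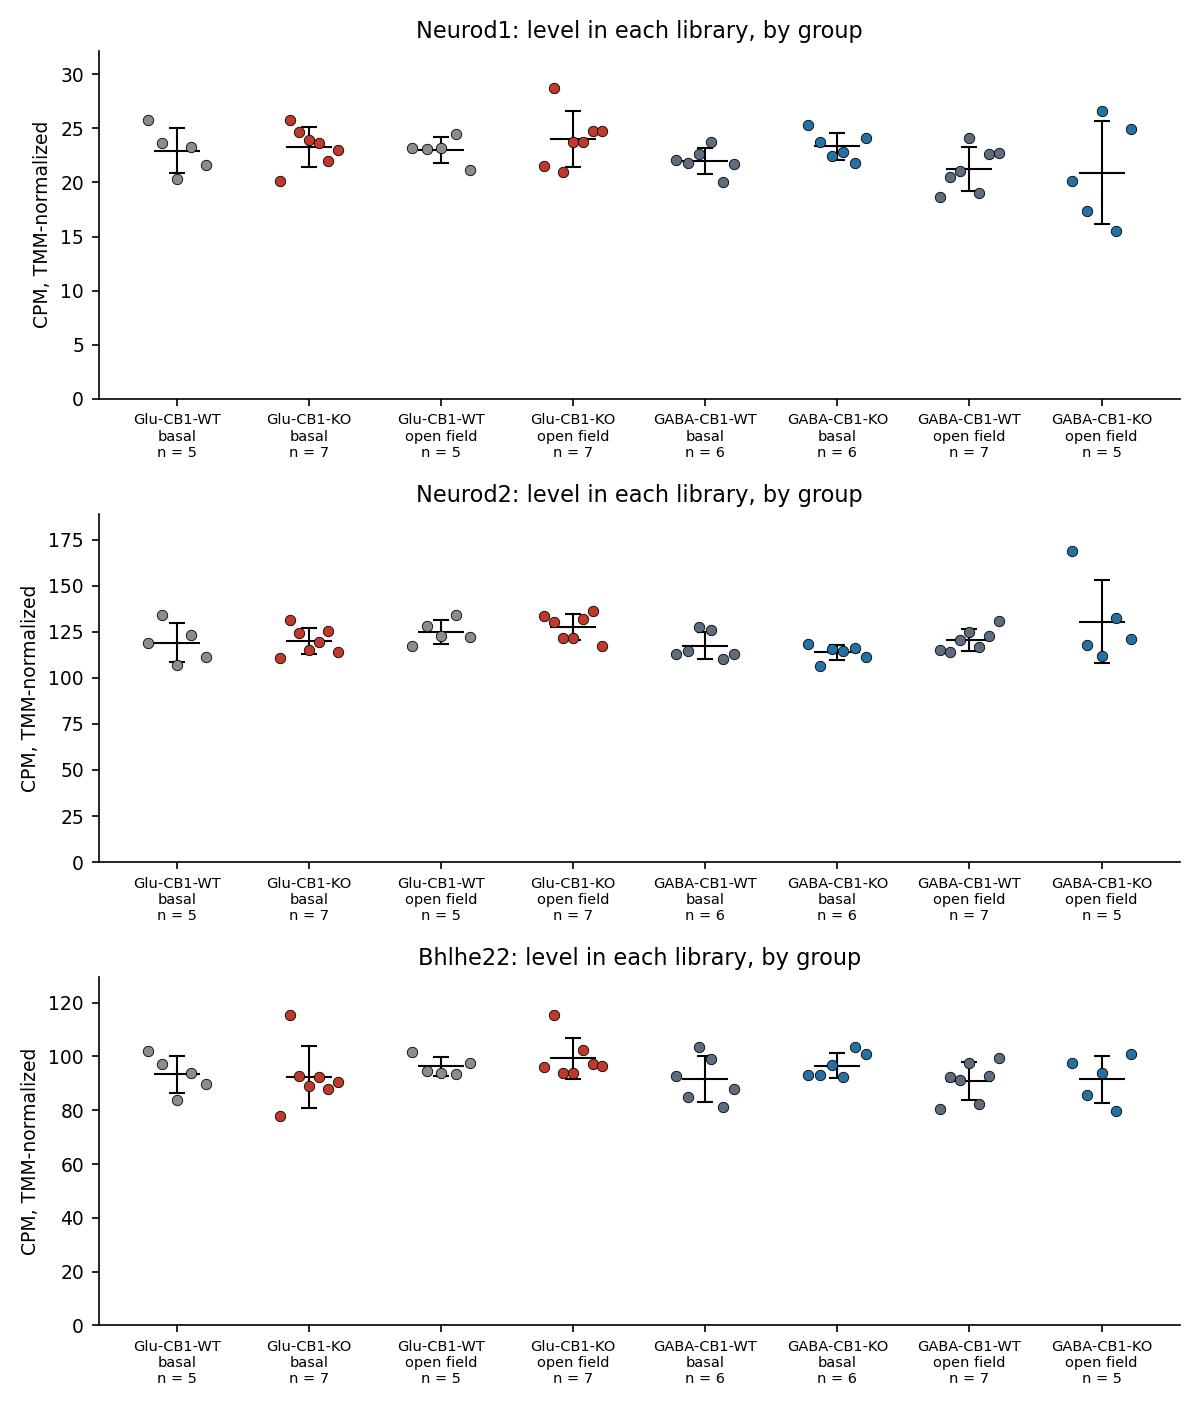
Level of *Neurod1*, *Neurod2* and *Bhlhe22* in CPM (linear axes from 0), with 1 point per library in the 8 groups and the mean ± SD in black. The groups overlap for each gene; *Neurod1* spreads most in GABA-CB1-KO mice after the open field (15.5 to 26.6 CPM), where *Neurod2* also has its highest library (168.7 CPM).

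Around these genes, the rest of the bHLH network and of the glutamatergic program was read from lists. Of 15 further relatives (neurogenins, *Atoh*, *Olig*, *Nhlh* and other genes of the wider family) 8 had enough reads to be tested, and 0 were called between KO and CB1-WT mice in either line or state by edgeR or by DESeq2, with between 0 and 1 at an unadjusted p under 0.05. Singled out after its values were seen, *Neurod4*, the remaining member of the Neurod family, was near the limit of the test, with 5 to 27 counts per library. Its log2 difference in Glu-CB1-KO mice was −0.12 in the home cage (adjusted p = 0.999 in edgeR) and 0.55 after the open field (SE 0.24, unadjusted p = 0.0366, adjusted p = 0.656). The 7 E-proteins and Id proteins are the partners of NeuroD factors and the inhibitors that sequester those partners. All were tested and 0 were called between KO and CB1-WT mice, with 0 or 1 at an unadjusted p under 0.05 in each line and state. Their median log2 difference in Glu-CB1-KO mice was 0.04 in the home cage and −0.03 after the open field, beside −0.0009 and −0.0025 over all genes.

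Of 28 transcription factors of the pyramidal lineage, 0 were called in basal Glu-CB1-KO mice by either tool (3 at an unadjusted p under 0.05, beside 541 of all 15138 genes) and 2 were higher after the open field, where 0.272% of all genes were called. These were *Etv1*, an ETS factor of layer 5 neurons, with a log2 difference of 0.45 (SE 0.08, adjusted p = 0.0291 in edgeR), and *Fezf2*, a determinant of subcerebral projection neurons, with 0.33 (SE 0.06, adjusted p = 0.0361). GABA-CB1 mice passed for neither, while the test between lines passed for both (0.62, adjusted p = 0.00681, and 0.47, adjusted p = 0.0383). Between the CB1-WT littermates of the lines the value of *Etv1* after the open field was −0.43 (Glu-CB1-WT against GABA-CB1-WT, adjusted p = 0.222 in edgeR), and DESeq2 called it. The median over the 28 factors was 0.02 in the home cage and 0.01 after the open field. Among 10 genes of excitatory neuron identity (*Slc17a7*, *Camk2a*, glutamate receptor subunits and others) 0 were called in the Glu-CB1 line by either tool, with 0 and 2 at an unadjusted p under 0.05. In the GABA-CB1 line edgeR called 0 of these 10 and of the 28 factors in either state, with 1 to 4 per list at an unadjusted p under 0.05, while DESeq2 called 1, *Camk2b*, also named after its value was seen, after the open field.

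The mice of a group differed among themselves in these genes, and some members moved together. After subtraction of the group means, *Neurod1* and *Bhlhe22* had a Pearson r of 0.699 over the 48 libraries (Spearman rho 0.697, p = 1e-05 in a two-sided permutation test within groups, the smallest that 100000 resamples can give, adjusted p = 1e-04 over 10 pairs). It was 0.721 without the 2 libraries farthest from the median of *Neurod1*, and 0.769 and 0.647 among the libraries below and above 0 on the first principal component. *Neurod2* and *Bhlhe22* had an r of 0.446 (rho 0.422, permutation p = 0.0048, adjusted p = 0.024), 0.510 without the 2 farthest libraries and 0.600 and 0.409 within the sides. The lower and upper run of animal numbers hold 29 and 19 libraries. This split is not independent of that on the first principal component. Within the runs the first pair had an r of 0.713 and 0.848 and the second of 0.541 and 0.063. The second relation thus did not hold in the upper run. The remaining 8 pairs did not pass. For *Neurod6* and *Gm3279* r was 0.329 within groups (rho 0.275, permutation p = 0.037, adjusted p = 0.0776).

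Part of this variation went along with markers of hippocampal subfields, of which 20 relations were tested. *Neurod6* was correlated with the mean of 6 CA3 and CA2 markers (r = 0.643, rho 0.540, permutation p = 6e-05, adjusted p = 6e-04), and so was *Neurod2* (r = 0.617, rho 0.535, permutation p = 2e-04, adjusted p = 0.00133). Without the 2 farthest libraries these were 0.595 and 0.535. The relation of *Neurod6* was 0.499 below and 0.682 above 0 on the first principal component, and that of *Neurod2* 0.574 and 0.718. *Bhlhe22* and *Neurod1* were correlated with the mean of the 8 dentate markers, with r of 0.697 (rho 0.524, permutation p = 2e-05, adjusted p = 4e-04) and 0.422 (rho 0.495, permutation p = 7.6e-04, adjusted p = 0.0038). The relation of *Bhlhe22* was 0.880 below 0 and 0.249 above 0 on the first principal component, and that of *Neurod1* was 0.478 and 0.271. In the lower and upper run of animal numbers they were 0.814 and 0.359 for *Bhlhe22* and 0.547 and 0.166 for *Neurod1*, against 0.557 and 0.598 for *Neurod6* and 0.668 and 0.735 for *Neurod2* with the CA3 and CA2 markers. These differences between subsets were not tested. Without the 2 farthest libraries the relations with dentate markers were 0.593 for *Bhlhe22* and 0.573 for *Neurod1*. Weaker relations that passed were those of *Bhlhe22* with CA1 markers (r = −0.395, rho −0.373, permutation p = 0.00809) and with CA3 and CA2 markers (r = 0.443, rho 0.424, permutation p = 0.00758), and of *Gm3279* with CA3 and CA2 markers (r = 0.410, rho 0.378, permutation p = 0.00822), each with an adjusted p of 0.0235. Without the 2 farthest libraries they were −0.345, 0.390 and 0.335, and within the sides of the split they ran from −0.808 to −0.438, from 0.476 to 0.730 and from 0.254 to 0.546. By rank correlation *Neurod1* also passed with CA3 and CA2 markers (rho 0.408, permutation adjusted p = 0.0256) and with CA1 markers (rho −0.366, adjusted p = 0.0384).

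**Figure D4:**
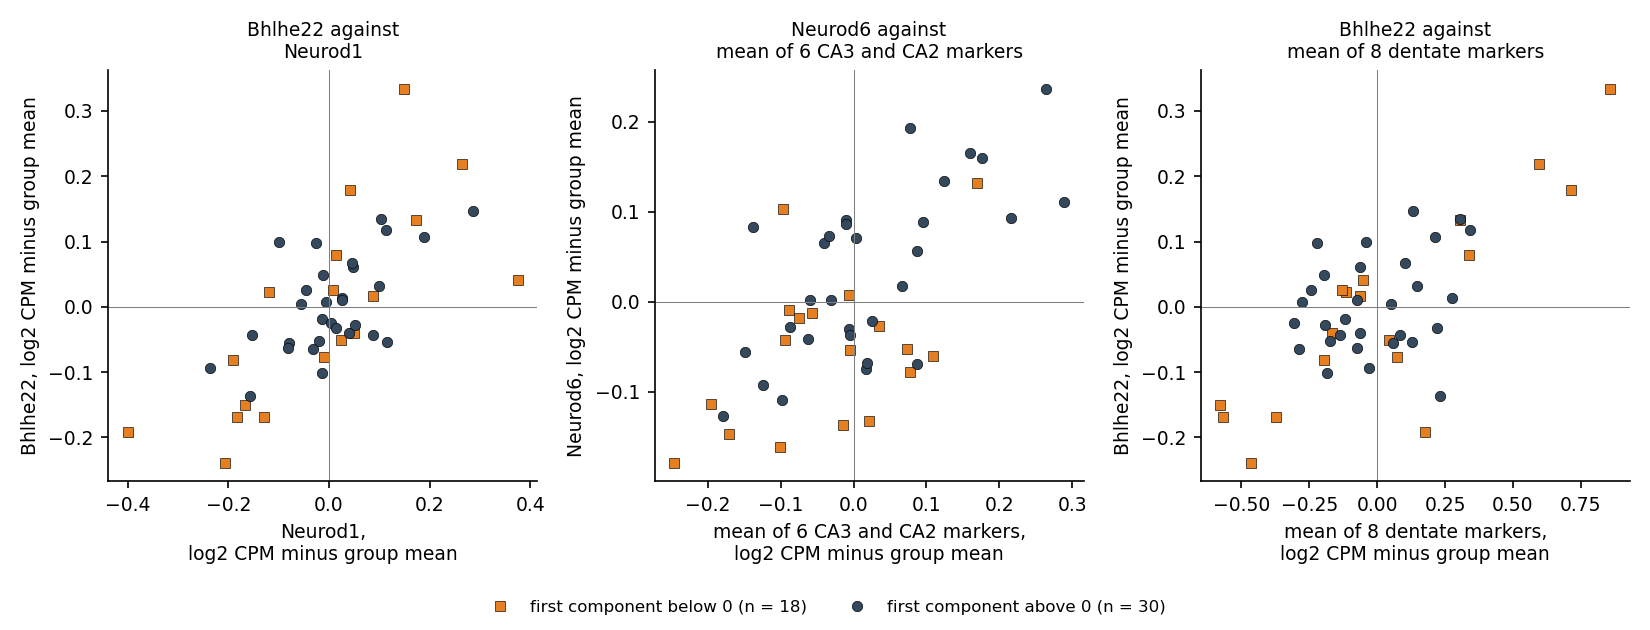
Deviation of each of 48 libraries from its group mean on the log2 CPM scale, for *Bhlhe22* against *Neurod1* (left), *Neurod6* against the mean of 6 CA3 and CA2 markers (middle) and *Bhlhe22* against the mean of 8 dentate markers (right). Colors give the side of the first principal component (18 libraries below 0, 30 above); r is 0.699, 0.643 and 0.697, and in the right panel the libraries far from 0 on the marker axis, such as Glu-CB1-KO basal replicate 2 at 0.86, are mostly those below 0.

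Marker lists were also set against the genotypes of the Glu-CB1 line. In basal Glu-CB1 mice the CA3 and CA2 markers summed to 334 to 405 CPM in CB1-WT and 327 to 433 CPM in KO libraries, with 0 of 6 called by either tool or at an unadjusted p under 0.05. After the open field the sums were 365 to 425 and 349 to 370 CPM, with 1 of 6 lower (*Iyd*, log2 difference −0.56, adjusted p = 0.0463 in edgeR), 3 of 6 at an unadjusted p under 0.05, 1 of 6 log2 differences above 0 and a median of −0.17. The sum of 8 interneuron markers was 712 to 867 CPM in CB1-WT and 865 to 960 CPM in KO mice in that state, with all 8 log2 differences above 0 (median 0.14), 6 of 8 at an unadjusted p under 0.05, 1 of 8 higher by edgeR (*Npy*) and 2 called by DESeq2 (*Npy* and *Sst*). It was 771 to 890 CPM against 798 to 948 CPM in the home cage, with all 8 log2 differences above 0 (median 0.10). There 0 of 8 were called by edgeR, 2 were at an unadjusted p under 0.05 and 1 was called by DESeq2 (*Npy*). In the home cage 0 of 5 thalamic markers were above 0 (median −0.12), with 1 at an unadjusted p under 0.05. Of 8 dentate markers 8 were above 0 in the home cage (median 0.08) and 0 after the open field (median −0.06), with 0 at an unadjusted p under 0.05 in either state. After the open field, the 5 thalamic markers summed to 97.3 to 119 CPM in CB1-WT and 79.7 to 97.1 CPM in KO libraries, with 1 of 5 lower by both tools (*Prkcd*, log2 difference −0.58, adjusted p = 0.00309 in edgeR). In the same comparison 4 of 6 CA1 markers (sums of 610 to 786 and 677 to 819 CPM) and 2 of 5 oligodendrocyte markers (3399 to 3890 and 3166 to 3729 CPM) were at an unadjusted p under 0.05, with 0 called by either tool. Of 5 choroid plexus markers 4 were above 0 in the home cage (median 0.61) and 3 after the open field (median 0.36). In each state 1 of them was at such a p. Of 6 CA1 markers 5 were above 0 in the home cage (median 0.11), with 1 at such a p. Of 5 microglia markers 4 were above 0 in the home cage (median 0.06) and 0 after the open field (median −0.06), with 0 at such a p. Neither tool called any of them. Beside these counts, 1051 of 15078 genes after the open field and 541 of 15138 in the home cage were at an unadjusted p under 0.05. In Glu-CB1-WT against GABA-CB1-WT mice after the open field, 0 of 8 interneuron markers were above 0 (median −0.12) and 5 had such a p. Of the CA3 and CA2 markers 6 of 6 were above 0 (median 0.16) and 2 had such a p, beside 748 of all 15325 genes. Neither tool called any of these, and the part of the CB1-WT libraries in the marker differences was not tested. The part of the interneuron, thalamic, CA1, oligodendrocyte, choroid plexus and microglia markers in the differences of the locus was not tested. A fit with the mean of the CA3 and CA2 markers as a covariate was added after seeing the data. In it *Neurod6* had a log2 difference of −0.64 in the home cage and −0.62 after the open field (adjusted p = 1.52e-06 and 0.00202 in edgeR). *Gm3279* had 3.37 and 3.12 (adjusted p = 7.48e-06 and 0.013 in edgeR). Without the covariate *Neurod6* was at −0.78 after the open field, and the SE of *Gm3279* was 0.24 there against 0.41 with it. The marker sums of the genotypes overlapped little in that state, so the fit cannot tell genotype and markers apart there.

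Over the 48 libraries, the genes of the table most like *Neurod6* in log2 CPM were *Lpl*, the lipoprotein lipase gene (Pearson r = 0.846 over all libraries, 0.743 within groups), *Npy2r*, a receptor of neuropeptide Y (0.832 and 0.726), and *Aak1*, a kinase of clathrin adaptors (0.785 and 0.483). *Lpl* was lower in Glu-CB1-KO mice after the open field (log2 difference −0.37, adjusted p = 0.0124 in edgeR) and differed by −0.27 in the home cage (adjusted p = 0.999). Most like *Gm3279* were *Npy* (0.794 and 0.262), *Bmp3* (0.739 and 0.141) and *Ccser1* (0.730 and 0.201), so that little of the likeness was left within groups. Outside Glu-CB1-KO mice *Gm3279* had only 5 to 18 reads per library, and the part of counting noise in the values within groups was not tested. *Npy* and *Bmp3* were higher in Glu-CB1-KO mice after the open field (0.55, adjusted p = 0.0185, and 0.67, adjusted p = 0.0177). For *Neurod1* the 3 most like genes were *Pcmtd2*, *Lin7c* and *Arl14ep* (r between 0.702 and 0.749), for *Neurod2* *Wscd2*, *Pgpep1* and *Ajap1* (0.709 to 0.787), and for *Bhlhe22* *Napepld*, *Ppfia2* and *Ccdc71l* (0.742 to 0.782). Of these 9 genes, 0 were called in Glu-CB1-KO mice in either state by edgeR, and the smallest unadjusted p was 0.202. All of these genes were picked by likeness over the 48 libraries, in which the Glu-CB1-KO groups set *Neurod6* and *Gm3279* apart. The genotype differences of *Lpl*, *Npy* and *Bmp3* thus follow in part from that choice. The same holds for the lack of calls among the 9, so neither is an independent result.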

How the data were processed

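RNA of CA tissue of 48 mice was amplified, sequenced with single reads of 50 bases, trimmed, aligned to mm10 with STAR 2.6.0a and counted per gene with featureCounts 1.6.2 (reverse-strand setting) by the authors, who deposited raw counts of 24421 genes, of which 3596 had no reads. Groups followed the labels. Each comparison was fitted with edgeR 4.0.16 (R 4.3.3) after filtering (filterByExpr) and TMM normalization: quasi-likelihood test, Benjamini-Hochberg adjustment over all genes tested, threshold 0.05. KO and CB1-WT were compared within line and state (12 libraries), and the remaining tests used 24 libraries. DESeq2 1.42.0 was an alternative. Each library is a separate mouse, and the labels name no litter. CPM and RPKM were computed from the counts, the latter with the exon lengths of the table. Correlations used log2 CPM (prior count 2) minus group means, with 100000 permutations within groups (scipy 1.17.1). Genes named were the members, the deleted gene, up to 3 called genes per list and comparison, the 3 genes most correlated with each member and the 3 nearest genes on either side of the locus. The scripts were tested on simulated counts. The members and lists were chosen with earlier results of these data known. Some marker genes also stand in the list of pyramidal factors. Within groups, no pair of libraries agreed within sampling noise (lowest chi-square per degree of freedom 2.93).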

Additional observations from a re-analysis of the deposited data

Results flagged for a closer look

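4 of 40 groups of libraries held a library far from the others by Dixon's criterion, and chance gives about 1 in 20. *Neurod6* was at 400.0 CPM in Glu-CB1-WT open field replicate 4, with the next library at 352.2, and at 237.8 CPM in Glu-CB1-KO open field replicate 5, with the next at 209.0. *Bhlhe22* was at 115.6 CPM in Glu-CB1-KO basal replicate 2 (next 92.8) and at 115.4 CPM in Glu-CB1-KO open field replicate 2 (next 102.5).

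The genotype effect differed between the lines for both genes of the *Nex* locus by a test of the difference itself. Glu-CB1 minus GABA-CB1 was −0.59 in the home cage and −0.80 after the open field for *Neurod6*, and 3.68 and 3.22 for *Gm3279*, on the log2 scale of edgeR's fit. The *Nex*-driven Cre and the cell type that lost the receptor both separate the lines, so their parts cannot be told apart.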

How the results depend on the processing

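In 1768 refits of 60 results of the 5 genes, under 10 settings and with each library left out in turn, 0 changed direction of a call or side of the threshold. Calls among these results were only those of *Neurod6* and *Gm3279* in the Glu-CB1 line and between lines, in both states. Most refits were thus of results not called, for which a change of sign was not counted. For example, *Neurod6* in open field GABA-CB1 mice ran from −0.05 to 0.06 over the settings. The number of members called moved under 1 setting, at least 10 counts in every library, which removed *Gm3279*: 1 was called instead of 2 in the Glu-CB1 line in the home cage and after the open field, and 1 instead of 2 in the difference between lines in either state. With 1 library left out, *Neurod6* ran from −0.70 to −0.62 in basal and from −0.81 to −0.74 in open field Glu-CB1 mice, and *Gm3279* from 3.16 to 3.43 and from 2.88 to 3.20. With the replicate number as a block, *Neurod6* was at −0.72 and −0.76 (adjusted p = 0.00282 and 0.00884 in edgeR) and *Gm3279* at 3.14 and 2.89. The numbers did not pair the mice, since the deviations of 21 same-numbered pairs had correlations between −0.335 and 0.317, with 4 above 0.1. The covariates of the first principal component and of the CA3 and CA2 markers, and leaving out the 2 libraries farthest on the second component, were chosen after seeing the data. DESeq2 called more genes in all than edgeR: 7 against 3 and 124 against 41 in the Glu-CB1 line (basal and open field), 102 against 37 and 141 against 3 in the GABA-CB1 line, 75 against 43 and 195 against 87 between lines, 357 against 200 and 280 against 159 for the open field, and 62 against 0 for the change with state in the GABA-CB1 line. *Gm3279* outside Glu-CB1-KO mice rests on 5 to 18 reads per library, which limits the precision of its fold.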
